A study of Mus musculus with 12 samples.

Results

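The genes described here handle fatty acids and triglycerides in the hepatocyte: Cd36, Fabp1, Lpin1, Dgat2, Plin2, Plin5, Cidec, Pnpla2, Pnpla3 and Mttp. They were found by gene name in the deposited table of normalized values, which holds 8 of the 10 among its 10607 genes, and by Ensembl identifier in the deposited table of input counts, which holds all 10 among its 55487 genes. Cidec and Pnpla3 are in the count table only, so their ribosome footprints and translation efficiency were not analysed here.

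Livers of 3 wild-type (WT) mice and 3 mice without Mettl5 (KO) were compared, and each WT mouse is labelled as a littermate of the KO mouse with the same number. The knockout came from a floxed exon of Mettl5 that was deleted in the whole body by crossing to a line carrying Cre under the CMV promoter, so a difference in liver can follow from the loss of the gene in any tissue. The stem cells were a C57bl/6 x 129S6 hybrid and the line was backcrossed to B6. Every liver was lysed in the presence of cycloheximide, and was split into input, whose RNA was fragmented, and monosomes left after nuclease digestion, whose ribosome-protected fragments (RPF) were sequenced, so that 12 libraries were made. Which sex and age each mouse had was not used here.

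Mettl5 was first examined as a check of the labels. Its RPF values were 58.4, 47.8 and 53.1 in WT mice 1, 2 and 3, and 8.34, 5.53 and 9.56 in KO mice 1, 2 and 3, a log2 fold change of -2.64 ± 0.36 (SE) with a limma adjusted p of 0.00504. Its input values were 38.5, 28.2 and 15.7 in WT and 8.55, 9.30 and 8.0 in KO, so all 3 KO libraries lay below all 3 WT libraries in both assays. In input its log2 fold change was -1.59 ± 0.46, with an edgeR adjusted p of 0.999. For translation efficiency (RPF relative to input) it was -1.16 ± 0.51, with a limma adjusted p of 0.998. These 2 tests thus did not call the deleted gene itself. Input libraries held 8326325 to 11825643 counts, of which the 18S rRNA gene took 45.8% to 63.8%, and 1675373 to 4236939 lay in genes with a coding sequence once Lars2 was set aside, most in KO mouse 1. The RPF libraries held 4623826 to 9184242 reads over the genes of the normalized table. The 7 hepatocyte markers were all abundant, with summed levels of 139251 to 179559 TPM (counts per exon length, scaled to a fixed total over the coding genes of each library) in WT and 147829 to 157466 in KO for input. Of 6 adipocyte markers, 4 had no count in any of the 6 input libraries, and the summed level of all 6 was 0 to 2.62 TPM in WT and 0 to 3.92 in KO, so the defining markers of fat were at or near 0.

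A hepatocyte takes up fatty acids, carries them through the cytosol on a binding protein, and esterifies them to triglyceride on the endoplasmic reticulum. The triglyceride is then stored in cytosolic droplets whose surface is covered by perilipins and related proteins, is released from them again by lipases, or is loaded onto apolipoprotein B and secreted in very low density lipoprotein. Cd36 is a fatty acid translocase of the plasma membrane and Fabp1 the abundant fatty acid binding protein of the liver. Lpin1 is a phosphatidate phosphatase that makes diacylglycerol, also known as a transcriptional coactivator, and Dgat2 adds the last acyl chain. Plin2 and Plin5 coat the droplet, and Cidec makes droplets fuse. Pnpla2 (adipose triglyceride lipase) opens triglyceride hydrolysis, Pnpla3 is a droplet protein of the same family, and Mttp transfers lipid to apolipoprotein B.

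Because the readout is translation, and the 18S rRNA of the small subunit is the known substrate of METTL5, the sequence around each start codon is shown, with the 9 bases before it and the 3 after it and with the start codon in capitals. The sequences are from the GENCODE M21 transcript with the longest coding sequence of each gene, on mm10, and the position is that of the first base of the start codon, with its strand. Whether this transcript and start codon are the ones used in liver was not tested.
Cd36 (chr5:17828894, minus strand): acgaggagaATGggc
Fabp1 (chr6:71199927, plus strand): gttgccaccATGaac
Lpin1 (chr12:16580895, minus strand): gttcagacaATGaat
Dgat2 (chr7:99182512, minus strand): ggcttcagcATGaag
Plin2 (chr4:86668679, minus strand): gaggaaaaaATGgca
Plin5 (chr17:56117126, minus strand): ctactggaaATGgac
Cidec (chr6:113434734, minus strand): ggagaaacaATGgag
Pnpla2 (chr7:141455287, plus strand): cgagtcacgATGttc
Pnpla3 (chr15:84167874, plus strand): tcaagcaccATGtat
Mttp (chr3:138134105, minus strand): caagaggaaATGaca
All 10 contexts have a purine 3 bases before the start codon, as do 86.5% of the genes of the normalized table. That base is A in 8 of the 10, against 46.7% of those genes, and it is G in Plin5 and Mttp. A G directly after the start codon is present in 4 of the 10 (Cd36, Plin2, Plin5 and Cidec), against 53.3%. Cidec and Pnpla3 are not among the genes of the normalized table. Over 19335 genes with such a sequence, 84.4% have the purine, 47.5% the A and 49.5% the G. The contexts of Fabp1, Lpin1, Dgat2, Pnpla2, Pnpla3 and Mttp have the purine and lack the G.

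In WT liver, Fabp1 was by far the most abundant of the 10 transcripts per length. Its input level was 12109.7 ± 1014 TPM (SD, n = 3), rank 8 of 14600 coding genes with counts, and 37.6 times that of Dgat2, the next in order. Dgat2 (322 ± 29.2 TPM), Plin2 (277 ± 35.0) and Mttp (233 ± 8.83) followed, each overlapping the next over the 3 mice. Lpin1 was at 85.7 ± 73.5 TPM and spanned 12.0 to 159, below Mttp in all 3 mice and overlapping Plin5 (59.8 ± 12.7). Pnpla2 (39.7 ± 6.38) lay below Plin5 in all 3 mice and overlapped Cd36 (38.4 ± 12.7). Cidec and Pnpla3 lay near the limit of detection. Cidec had 1, 4 and 0 counts in the WT input libraries and none in the 3 KO libraries, and Pnpla3 had 2, 0 and 0 in WT and 10, 0 and 0 in KO. Both failed the filter on low counts, and a count of 0 allows up to 0.708 to 1.79 counts per 1e6 counts in coding genes, which covers counting error only.

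RPF values were divided by coding length to compare the genes in footprints. Fabp1 again led with 61475 ± 8618 per coding kb (SD, n = 3), rank 7 of 10597 genes, and Plin2 was next with 2049 ± 74.3, above Mttp (814 ± 117), Dgat2 (563 ± 117) and Lpin1 (412 ± 306). Cd36 (212 ± 69.3), Plin5 (169 ± 51.5) and Pnpla2 (92.2 ± 4.19) were lowest. Plin2 thus passed Dgat2 in footprints although their input levels overlapped. The log2 ratio of the RPF value per coding kb to the input value per exon kb was 2.88 ± 0.13 for Plin2, higher than in 84.9% of the tested genes, and 0.77 ± 0.23 for Dgat2, higher than in 22.8%, with a median of 1.64 over 8986 genes. This ratio uses the joined length of all annotated exons for input and the longest coding sequence for RPF, and the share of it due to untranslated exons was not tested.

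**Figure D1:**
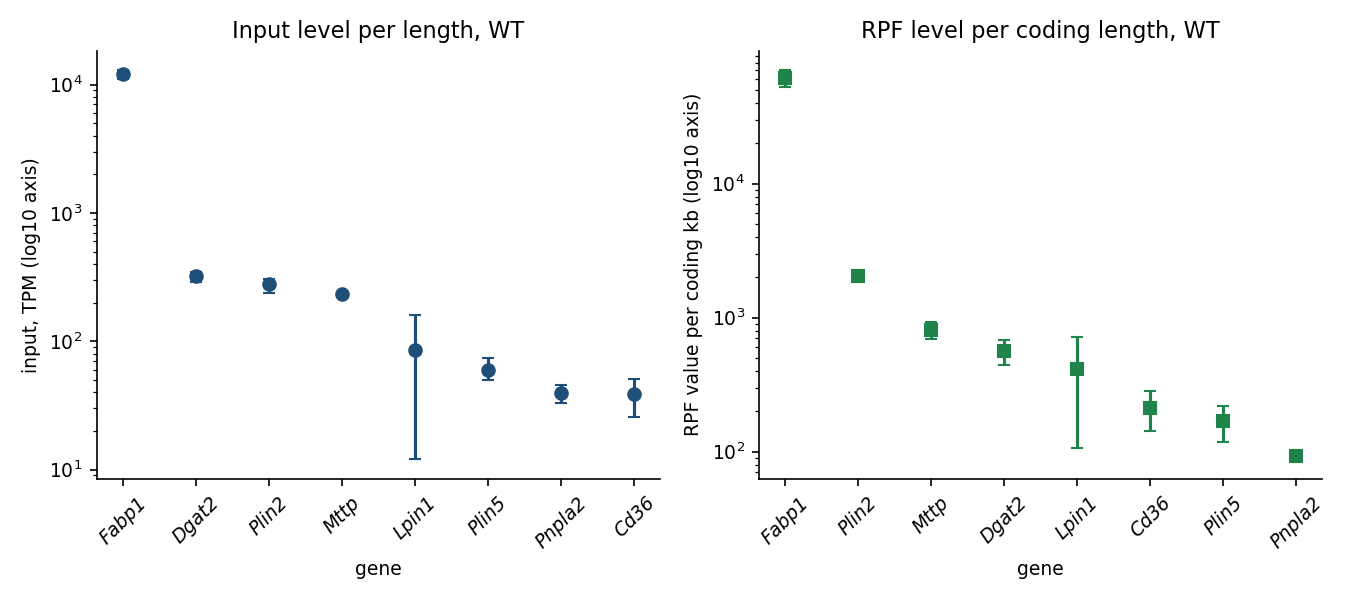
Mean levels per length of 8 genes in the 3 WT mice, in descending order. Left, input in TPM with bars from the lowest to the highest mouse; right, RPF value per kb of coding sequence with bars of 1 SD; both y axes are log10. Fabp1 stands at 12109.7 TPM, 37.6 times the next gene, and Plin2 is second in RPF.

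The main comparison asked whether these genes differ between KO and WT in transcript level (input), in ribosome footprints (RPF), or in translation efficiency (TE, the RPF value relative to the input value of the same mouse). None of the 8 genes that could be tested passed an adjusted p of 0.05 in any of the 3. In input, edgeR called 0 of 8, with 0 at an unadjusted p under 0.05, and DESeq2 also called 0. Over all 10057 genes tested edgeR called 0%, and 3.46% had an unadjusted p under 0.05. In RPF, limma called 0 of 8, with 2 at an unadjusted p under 0.05, and edgeR on the recovered reads called 0 of 8, also with 2 at an unadjusted p under 0.05. Over 8994 genes limma called 0.489% in RPF, and 13.4% had an unadjusted p under 0.05. In TE, limma and edgeR each called 0 of 8, with 1 at an unadjusted p under 0.05, against 0% and 4.7% over all genes in limma. These TE fits had no term for the mouse. With the mouse as a block, limma called 0 of 8 in TE, with 2 at an unadjusted p under 0.05, Pnpla2 and Lpin1. Over all 8994 genes that fit called 0, and 646 had an unadjusted p under 0.05. In bulk liver, fewer cells of a type and less RNA per cell cannot be told apart. Log2 fold changes are KO against WT, and RPF and TE values are on the log2(value + 1) scale. TE values of single mice are (RPF + 1)/(input + 1).

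**Figure D2:**
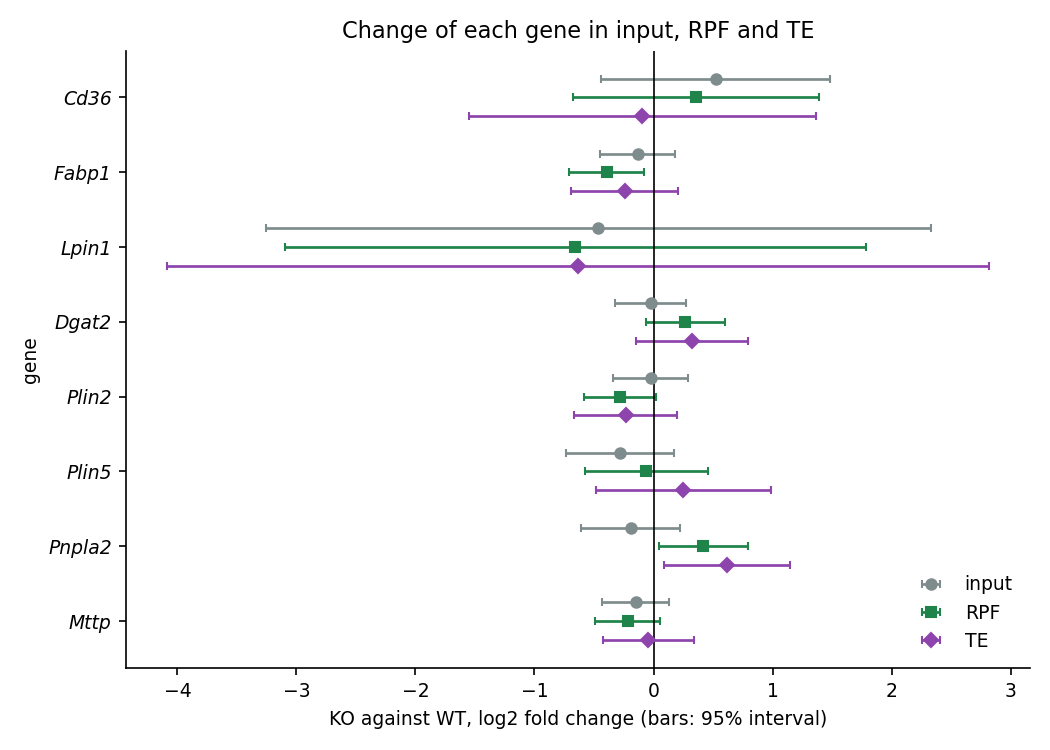
Log2 fold change of KO against WT for the 8 tested genes in input (circles), RPF (squares) and TE (diamonds), with bars for the 95% interval. The widest intervals are those of Lpin1, and the intervals of Fabp1 in RPF and of Pnpla2 in RPF and TE do not reach 0 before adjustment. The TE bars come from the fit without a term for the mouse.

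Cd36, the fatty acid translocase, was higher in KO than in the WT littermate in all 3 litters and both assays. Its input values were 145, 188 and 89.2 in WT mice 1, 2 and 3 and 223, 250 and 112 in KO mice 1, 2 and 3, and its RPF values were 303, 397 and 201 in WT and 523, 458 and 212 in KO. Mouse 3 of either genotype had the lowest value, so the groups overlapped. KO was 1.54, 1.33 and 1.25 times the WT littermate in input and 1.72, 1.15 and 1.06 times in RPF. Of all 8994 genes, 3.45% were higher in KO in all 3 litters in both assays. The log2 fold change was 0.52 ± 0.39 (SE) in input and 0.36 ± 0.46 in RPF, with adjusted p-values of 0.999 and 0.789. These values rested on single mice, as without WT mouse 3 they were 0.26 in input and 0.09 in RPF, without WT mouse 2 the input value was 0.79, and without KO mouse 3 the RPF value was 0.76. Its TE was 2.08, 2.10 and 2.24 in WT and 2.34, 1.83 and 1.89 in KO. On the log2 scale the SD within genotype was 0.58 in input and 0.61 in RPF, above that of 91.1% and 94.4% of genes, but 0.14 in TE, above that of 9.28%. With litter as a block the unadjusted p was 0.0107 in input and 0.0329 in RPF, with adjusted p-values of 0.997 and 0.241.

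Fabp1, the cytosolic carrier, had the smallest RPF p of the 8. Its RPF values were 26726, 23381 and 20159 in WT and 21054, 15616 and 16869 in KO, and each KO mouse was below its WT littermate, with KO minus WT from -0.58 to -0.26 on the log2 scale. KO mouse 1 lay above WT mouse 3, so the groups overlapped. The RPF log2 fold change was -0.39 ± 0.15 (95% interval -0.71 to -0.08), with an unadjusted p of 0.0176 and an adjusted p of 0.265. Input values were 7464, 7051 and 5877 in WT and 5542, 5984 and 6783 in KO, a log2 fold change of -0.13 ± 0.15. TE was 3.58, 3.32 and 3.43 in WT and 3.8, 2.61 and 2.49 in KO, so that KO mouse 1 was the highest of the 6 and KO mice 2 and 3 were the lowest.

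Lpin1, the phosphatidate phosphatase, varied more between mice of a genotype than nearly all other genes. Its input values were 125, 1622 and 827 in WT and 463, 1043 and 333 in KO, a 13.0-fold range over the 6 mice. The SD within genotype on the log2 scale was 1.48 in input, exceeded by 11 of 8994 genes, and 1.14 in RPF, exceeded by 31, where the median over all genes was 0.26 in input and 0.25 in RPF. RPF values were 267, 1964 and 1196 in WT and 538, 839 and 356 in KO, and placed the mice in the same order as input except that WT mouse 3 and KO mouse 2 changed places. Its intervals were wide, with a log2 fold change of -0.47 (-3.26 to 2.33) in input and -0.66 (-3.10 to 1.78) for RPF. With a mouse left out the RPF value ran from -1.49 without WT mouse 1 to -0.06 without WT mouse 2, and the input value was 0.37 without WT mouse 2.

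The ratio of footprints to transcript was less variable for Lpin1 than either assay alone, with an SD within genotype of 0.36 in TE. That SD still exceeded that of 56.9% of genes, where the median was 0.32. The TE of Lpin1 was lower in KO, a change that was not called. Its TE was 2.14, 1.21 and 1.45 in WT and 1.16, 0.804 and 1.07 in KO, so that all 3 KO mice were below all 3 WT mice, and KO minus WT ran from -0.88 to -0.44 in the 3 litters on the log2 scale. WT mouse 1, with the lowest input, had the highest TE, and WT mouse 2 and KO mouse 2, with the highest input, had the lowest TE of their genotypes. All KO mice were below all WT mice in TE in 7.34% of 8994 genes. The TE log2 fold change was -0.63, with an unadjusted p of 0.684 in the fit without a term for the mouse and of 0.0492 with the mouse as a block, and adjusted p-values of 0.998 and 0.690.

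Dgat2, the terminal acyltransferase, had stable transcript levels. Input values were 930, 1049 and 1031 in WT and 1030, 1029 and 849 in KO, a log2 fold change of -0.02 ± 0.14 (95% interval -0.32 to 0.28). RPF values were 504, 689 and 771 in WT and 671, 898 and 778 in KO, above the WT littermate in all 3 litters by 0.01 to 0.41 on the log2 scale, and the groups overlapped. The RPF log2 fold change was 0.27 ± 0.16 with an adjusted p of 0.480, and was 0.09 without WT mouse 1 and 0.40 without WT mouse 3. TE was 0.543, 0.658 and 0.748 in WT and 0.652, 0.873 and 0.916 in KO, higher in KO by 0.26 to 0.41 in each litter. In TE 14.7% of genes were higher in KO in all 3 litters, and the TE log2 fold change of 0.32 ± 0.23 had an adjusted p of 0.998.

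Of the droplet coat proteins, Plin2 was the more abundant, and it did not pass the test in any assay. RPF values were 2563, 2722 and 2552 in WT and 2507, 2009 and 1961 in KO, so all KO mice were below all WT mice, KO mouse 1 by a small margin. Groups of RPF values did not overlap for 2 of the 8 genes, Plin2 and Pnpla2, against 19.8% of all genes, 12.9% with KO lower and 6.97% with KO higher. The RPF log2 fold change was -0.28 ± 0.14 (95% interval -0.59 to 0.02), with an adjusted p of 0.411. Input values were 869, 1094 and 989 in WT and 789, 1031 and 1044 in KO, a log2 fold change of -0.02 ± 0.15. TE was 2.95, 2.49 and 2.58 in WT and 3.17, 1.95 and 1.88 in KO, with KO mouse 1 highest and the other KO mice lowest, as for Fabp1. The TE log2 fold change was -0.23 ± 0.20 with an unadjusted p of 0.266 and an adjusted p of 0.998, and ran from -0.48 without KO mouse 1 to -0.10 without KO mouse 3.

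Plin5 is the perilipin of oxidative tissues. Its RPF values were 153, 263 and 288 in WT and 188, 286 and 190 in KO, and its input values were 108, 119 and 149 in WT and 93.4, 132 and 81.6 in KO. Neither assay separated the groups, and the sign differed between litters in both. The log2 fold change was -0.28 ± 0.21 in input and -0.06 ± 0.24 in RPF.

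Pnpla2, the lipase that opens triglyceride hydrolysis, had the smallest TE p of the 8. Its RPF values were 128, 135 and 140 in WT and 147, 206 and 193 in KO, so that every KO mouse was above every WT mouse. Its input values were 105, 143 and 117 in WT and 90.1, 105 and 122 in KO, which overlapped. TE was 1.22, 0.946 and 1.20 in WT and 1.62, 1.95 and 1.58 in KO, again without overlap, and the KO mouse was 1.33, 2.06 and 1.32 times its littermate. The TE groups did not overlap for Pnpla2 (higher) and Lpin1 (lower), 2 of the 8 genes, against 13.4% of all genes, and KO was above WT in 6.08%. The RPF log2 fold change was 0.42 ± 0.18 (95% interval 0.04 to 0.79), with an unadjusted p of 0.0302 and an adjusted p of 0.319. The TE log2 fold change was 0.62 ± 0.25 (0.09 to 1.15), with an unadjusted p of 0.0249 and an adjusted p of 0.998. Its reads were few, 57 to 137 per input library and 147 to 335 per RPF library.

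Mttp, needed for secretion of very low density lipoprotein, was slightly lower in KO in every litter in both assays, as were 5.71% of all genes. Input values were 1510, 1544 and 1348 in WT and 1264, 1309 and 1322 in KO, so all KO mice were below all WT mice, a separation seen in input for 1 of the 8 genes and for 9.25% of all genes. RPF values were 2579, 1973 and 2104 in WT and 2049, 1845 and 1802 in KO, which overlapped. The log2 fold change was -0.15 ± 0.13 in input and -0.22 ± 0.13 in RPF, with adjusted p-values of 0.999 and 0.481, and the RPF value was -0.10 without WT mouse 1. The TE log2 fold change was -0.04 ± 0.18 (95% interval -0.43 to 0.34), or 0.743 to 1.27 times WT.

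**Figure D3:**
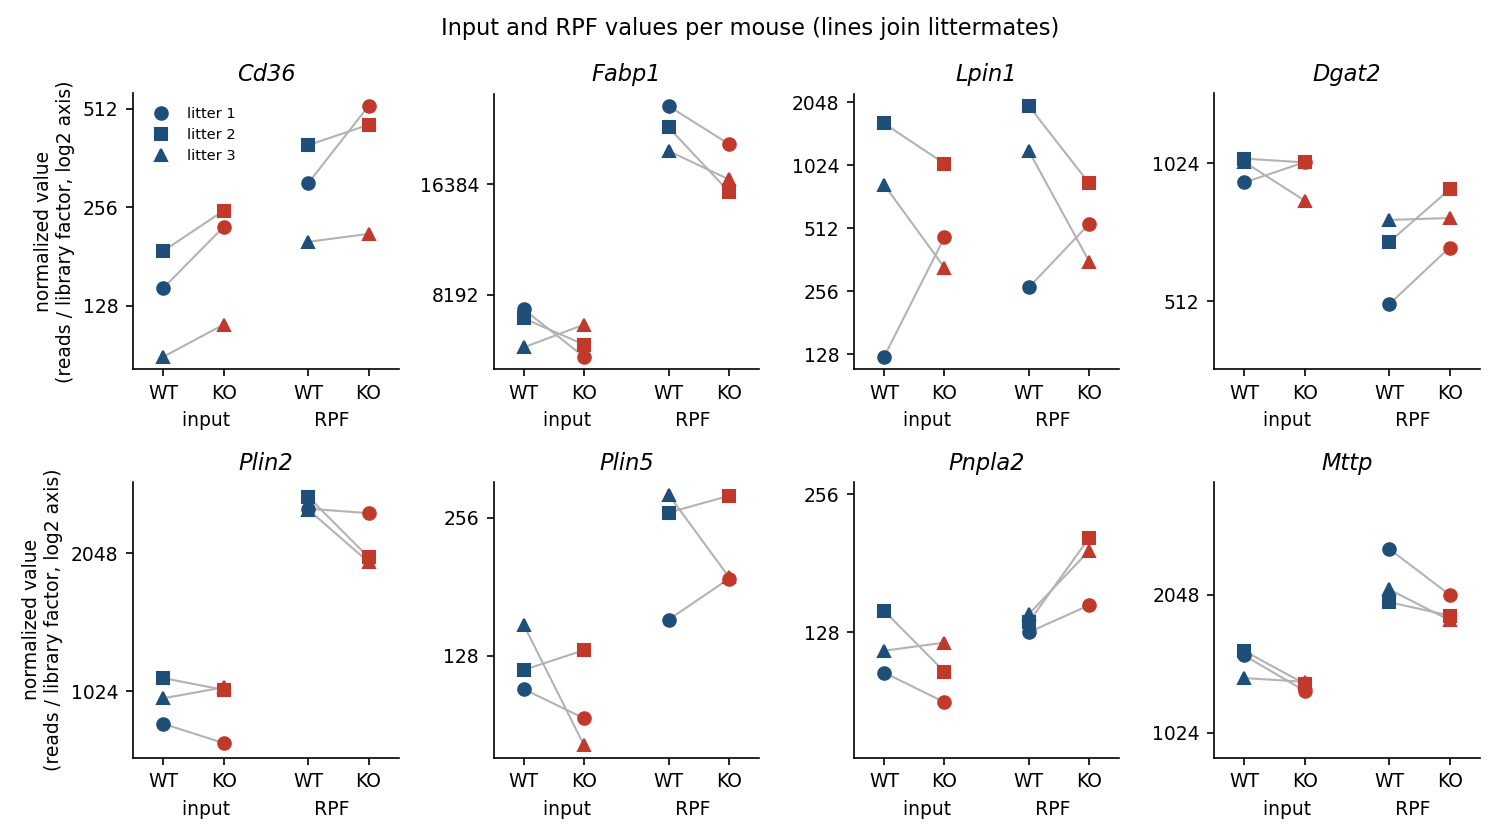
Normalized input and RPF values of the 8 genes in every mouse on log2 axes, with WT in blue and KO in red, a symbol for each litter and grey lines joining littermates. Cd36 is higher in the KO mouse of all 3 litters in both assays, the RPF values of Plin2 and Pnpla2 do not overlap between genotypes, and Lpin1 spans a 13.0-fold range in input.

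**Figure D4:**
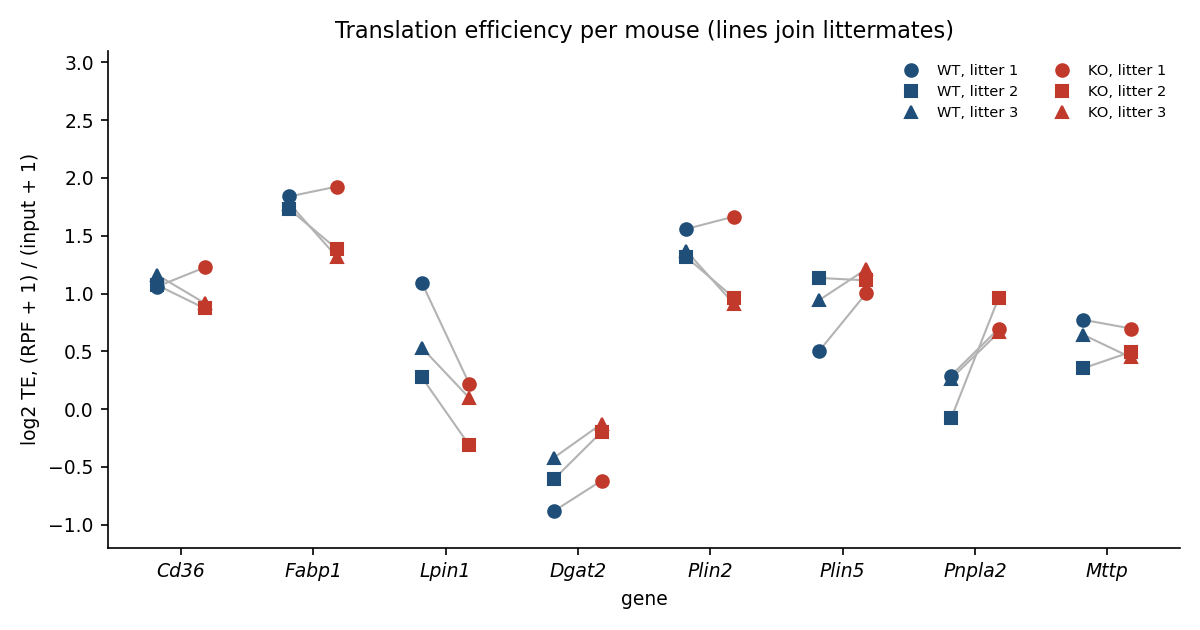
TE of the 8 genes per mouse on the log2 scale, with littermates joined by lines. KO mice lie above WT mice for Pnpla2 and below them for Lpin1 without overlap, and KO mouse 1 lies apart from KO mice 2 and 3 for Fabp1 and Plin2.

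Over the 8 genes, 7 of 8 had a lower input value in KO, with a median log2 fold change of -0.14, where 50.0% of all genes were higher and the median was -0.000373. In RPF 3 were higher and 5 lower, with a median of -0.14 against -0.03 over all genes. In TE 3 were higher and 5 lower, with a median of -0.07 against -0.01. The KO mouse differed from its littermate in the same direction in all 3 litters for 2 of the 8 genes in input, against 25.9% of all genes, and for 6 in RPF, against 41.2%. Of those 6, Cd36, Dgat2 and Pnpla2 were higher, against 17.4% of all genes, and Fabp1, Plin2 and Mttp lower, against 23.8%. In TE the direction was shared by the 3 litters for 3 of the 8 genes, against 31%.

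The RPF change of a gene moved with the GC content of its coding sequence over the whole table, with a Spearman rho of 0.45 across 8986 genes, which are not independent replicates. The median RPF log2 fold change was -0.26 in genes under 45% GC and 0.27 in genes of 60% GC or more, and the matching medians in input were -0.07 and 0.01. The coding sequences of the 8 genes ran from 41.5% GC in Cd36, through Fabp1 (48.0%), Mttp (49.3%), Plin2 (53.0%), Lpin1 (53.5%), Dgat2 (55.8%) and Pnpla2 (58.4%), to 61.6% in Plin5. The median over the tested genes was 52.6%. Fabp1 and Mttp had negative RPF log2 fold changes and lay below it, Dgat2 and Pnpla2 had positive ones and lay above it, and Plin2, Lpin1 and Plin5, negative but above it, and Cd36, positive but below it, did not follow this pattern. With the GC trend removed the RPF log2 fold change was 0.27 for Pnpla2 (unadjusted p = 0.127), -0.26 for Fabp1 (0.0803), -0.12 for Mttp and 0.19 for Dgat2, and the TE log2 fold change of Pnpla2 was 0.46 (0.0657), all in limma. Plin2 was then at -0.28 and Lpin1 at -0.66 in RPF. Cd36 and Plin5 lay on the other side of the trend, and with it removed Cd36 was at 0.63 and Plin5 at -0.30 in RPF. With litter as a block beside the GC correction, the adjusted p of Cd36 in RPF was 0.0589, the lowest of any of the 8 genes under any setting. The part of the GC trend in these changes was not tested further.

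**Figure D5:**
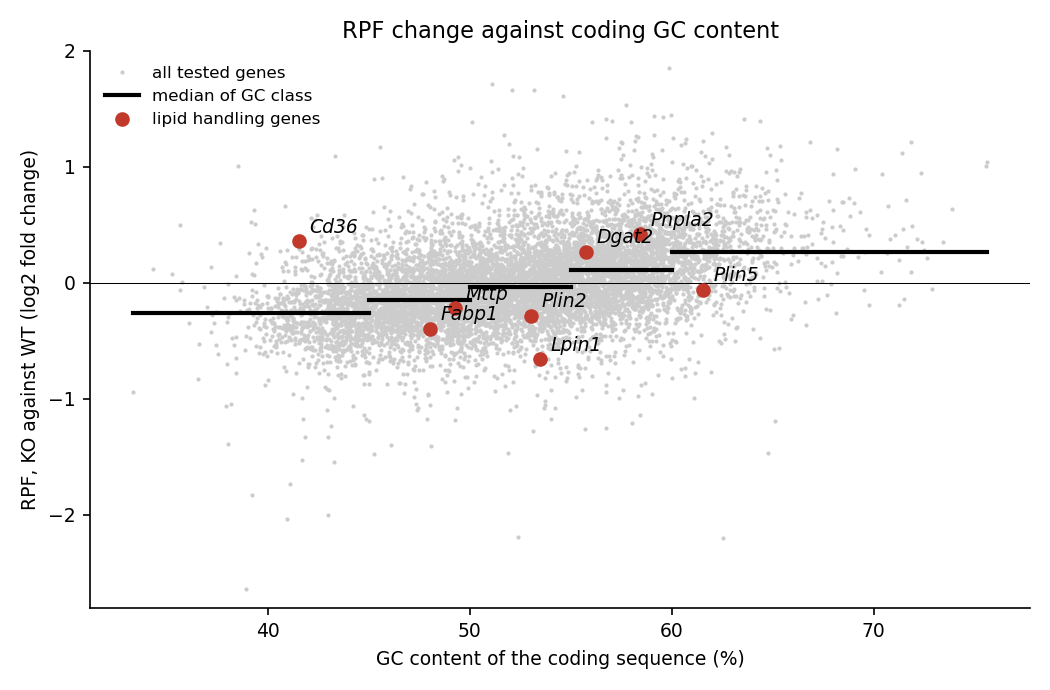
RPF log2 fold change of KO against WT plotted against the GC content of the coding sequence in percent, with all tested genes in grey, the 8 lipid handling genes in red, and black lines for the median of each GC class. The class medians run from -0.26 under 45% GC to 0.27 at 60% GC or more; Cd36 lies above its class and Plin5 below its own.

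Other genes of these pathways were read from 6 lists of 66 genes in all. None of the 60 tested in input by edgeR or of the 59 tested in RPF and TE by limma was called. At an unadjusted p under 0.05, 2 were higher and 10 lower in RPF by limma, against 5.4% higher and 7.99% lower over all genes. In input by edgeR 2 were higher at that threshold, against 3.46% of all genes in either direction. In TE by limma 2 were higher and 4 lower, against 4.7% of all genes in either direction. The median RPF log2 fold change over the lists was -0.10, against -0.03 over all genes.

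Among the droplet coat and assembly proteins, 4 of 9 tested had an unadjusted RPF p under 0.05, all lower in KO, against 7.99% of all genes. Hsd17b11, a droplet-associated dehydrogenase, had RPF values of 1009, 1080 and 897 in WT and 806, 728 and 564 in KO (log2 fold change -0.52 ± 0.15, adjusted p = 0.124), while its input log2 fold change was 0.08. Rab18, a droplet GTPase, had an RPF log2 fold change of -0.47 ± 0.17 (adjusted p = 0.221), with overlapping groups. In the synthesis list none of 8 had an unadjusted RPF p under 0.05, and Dgat1, which shares the reaction of Dgat2, and Agpat5 had the smallest, with log2 fold changes of 0.27 ± 0.23 and 0.23 ± 0.24.

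Among lipolysis genes, Abhd5, the coactivator of Pnpla2, had RPF values of 125, 93.0 and 111 in WT and 83.4, 52.9 and 64.0 in KO, without overlap (log2 fold change -0.72 ± 0.25, adjusted p = 0.192), the opposite direction to Pnpla2. Lipa, the lysosomal acid lipase, had a log2 fold change of -0.36 ± 0.15. These were the 2 of 9 with an unadjusted RPF p under 0.05, both lower, against 7.99% of all genes. Of the uptake and activation genes, Acsl4, an acyl-CoA synthetase of long polyunsaturated chains, came nearest to the threshold. Its RPF values were 1047, 1096 and 953 in WT and 763, 653 and 681 in KO (log2 fold change -0.56 ± 0.15, adjusted p = 0.0873), with input values of 532, 571 and 452 in WT and 541, 404 and 555 in KO. Fabp5, a binding protein of the same family as Fabp1, was higher in KO RPF at 189, 154 and 187 against 115, 88.7 and 71.7 (log2 fold change 0.96 ± 0.42, adjusted p = 0.365).

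In the list for very low density lipoprotein, Apob, the structural protein that Mttp loads with lipid, had RPF values of 76133, 72947 and 72606 in WT and 59961, 55007 and 54403 in KO (log2 fold change -0.39 ± 0.12, adjusted p = 0.145). Its input values were 43019, 47313 and 45162 in WT and 38562, 37462 and 39544 in KO, and neither assay overlapped. Surf4, a cargo receptor for secreted proteins, had an RPF log2 fold change of -0.37 ± 0.15. Besides these 2, 1 gene of the 9 had an unadjusted RPF p under 0.05, a threshold that 13.4% of all genes passed. It was Tm6sf2, a membrane protein needed to load lipid onto the particle, named after its values were seen. Tm6sf2 was higher in KO at 0.54 ± 0.23 (adjusted p = 0.321). In input 8 of the 9 genes of this list were lower in KO, with a median of -0.15. Over all genes 50.0% were higher in input, and the median was -0.000373. The last list held 12 genes, mostly transcription factors and coactivators. Its member Insig2 is neither of these and retains sterol sensors in the endoplasmic reticulum. Insig2 was lower in RPF at -0.35 ± 0.15 (adjusted p = 0.319). Ppara, the fatty acid sensor known to act on several of these genes, was at 0.27 ± 0.14 (adjusted p = 0.425). The coding GC content was 49.4% in Hsd17b11, 43.9% in Rab18, 49.7% in Abhd5, 46.3% in Lipa, 43.1% in Acsl4, 43.4% in Apob and 47.1% in Insig2, which had negative RPF log2 fold changes and lay below the median of 52.6%. Surf4 was negative as well and lay just above the median at 52.9%. Of the genes with positive values, Agpat5 (46.1%), Fabp5 (51.1%) and Ppara (51.5%) lay below the median, and Dgat1 (54.1%) and Tm6sf2 (55.1%) above it.

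The genes most like Fabp1 in RPF over the 6 libraries were Arl3, Fetub and Snx27, out of 8994 searched. Their centred log2 values differed from those of Fabp1 by a root mean square of 0.04, 0.05 and 0.05, where the values of Fabp1 itself had a root mean square of 0.26. Fetub, a secreted liver protein, had RPF values of 5221, 4411 and 4154 in WT and 4305, 3136 and 3250 in KO.

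Of the other liver cell types, stellate cells had the markers that differed most between groups. Of 5 stellate markers tested in input 2 had an unadjusted p under 0.05 by edgeR, against 3.46% of all genes. The endothelial, Kupffer and cholangiocyte lists had 0 in input. In RPF 1 of 6 endothelial markers tested had an unadjusted p under 0.05 by limma, against 13.4% of all genes in either direction. No Kupffer or cholangiocyte marker passed that threshold. Of the 5 stellate markers tested in RPF 4 were higher at an unadjusted p under 0.05 by limma, against 5.4% of all genes. None of the stellate markers was called, and their summed RPF value was 1671 to 1902 in WT and 2428 to 2686 in KO. The summed level of the 6 stellate markers in input was 133 to 162 TPM in WT and 146 to 189 in KO. The 6 endothelial markers, cells that also express Cd36, summed to 153 to 177 TPM in WT and 171 to 192 in KO input, and 1423 to 1845 and 1329 to 1874 in RPF. The Kupffer markers summed to 382 to 558 TPM in WT and 350 to 536 in KO. Their part in the values of Cd36 and the other genes was not tested.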

How the data were processed

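The authors trimmed reads with BBDuk, aligned input pairs to mm10 with STAR and counted uniquely mapped pairs over exons on the coding strand with featureCounts. The deposited input counts are whole read pairs per gene. RPF reads were freed of rRNA and processed with RiboToolkit. The table of normalized values was described by the authors as length-normalized, but the signal deposited in it is whole reads divided by 1 factor per library. In every column 100% of values gave whole reads within 0.01, and these equalled the counts in 100% of genes for input. The origin of the factors and of the choice of genes is not given in the sources used here. The authors also deposited in it their own log2 fold changes and p-values from their TE comparison, which were not used, and 0 columns of samples were left out.

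The 10 genes and the pathway lists were chosen with earlier results of these data known. Input was tested on counts with edgeR 4.0.16 (R 4.3.3, TMM, filterByExpr, robust quasi-likelihood test), genotype being the only term. For RPF and TE, limma 3.58.1 (trend and robust) was fitted to log2(value + 1) of the genes averaging 10 or more in each assay, as 4 group means over 12 libraries, with TE as the interaction. A count model was added because whole reads were recovered. All tests are two-sided, adjusted by Benjamini-Hochberg over all genes tested, and called at 0.05. The 3 mice of a group were separate animals. Scripts were tested on simulated counts, with the same dispersion for every gene and no effect of litter or mouse. At an adjusted p under 0.05, 41.3% of 2-fold changes were recovered in input, 43.5% in RPF and 3.63% in TE. Of 4-fold changes, 97.4%, 100% and 89.8% were recovered. Of the genes called there, 5.58%, 6.03% and 0.592% had not been changed. Recovery at the larger spread of Lpin1 and Cd36 was not simulated. Named by rule are the 10 genes, Mettl5, the 2 genes of each list with the smallest RPF p since none was called, and the 3 genes nearest to Fabp1 in RPF. Outside this rule, Tm6sf2 and the 11 genes with a larger input SD than Lpin1 were named after values were seen.

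Mice with the same number were labelled littermates, so the numbers pair them; correlations of their deviations from group means were 0.0816, 0.127 and 0.100 in input and 0.242, 0.144 and 0.195 in RPF. TPM was taken over genes with a coding sequence except Lars2, because short rRNA-like genes held a large and uneven share of the counts per length. Coding length and GC came from GENCODE M21 for 99.9% of the table's genes. The depth of each library sets the precision of low genes such as Pnpla2. The alternatives were RLE factors, DESeq2 1.42.0, no filter or a mean of at least 50, pseudocounts of 0.1 and 5, TMM factors, edgeR on reads, the RPF libraries alone, a GC correction, blocks of litter and mouse, input without the rRNA genes and Lars2, and leaving out each mouse.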

Additional observations from a re-analysis of the deposited data

How the results depend on the processing

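The number of the 8 tested genes called was 0 in input, RPF and TE under every alternative run, the fits without each mouse included. The 405 recomputed values were log2 fold changes of the 8 genes and the numbers of them called. Of these, 390 kept their direction or number and stayed on the same side of the threshold. The other 15 were log2 fold changes that reversed and were not called. Of those 15, 4 came with the GC trend removed, where the TE log2 fold change was 0.10 for Cd36 and 0.042 for Mttp, both with and without litter as a block. The others came from leaving out 1 mouse: over those fits input ran from -0.10 to 0.10 for Plin2, -1.07 to 0.37 for Lpin1 and -0.076 to 0.070 for Dgat2, RPF from -0.34 to 0.11 for Plin5, and TE from -0.16 to 0.048 for Mttp. Among values that kept direction, leaving out 1 mouse moved RPF from 0.095 to 0.76 for Cd36 and 0.092 to 0.40 for Dgat2, and TE from -0.43 to -0.13 for Fabp1. The cause was not tested.

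The block of litter, which pairs the mice, called 0 of the 8 genes in input, RPF and TE, and changed no call. It moved the calls over all genes from 44 to 236 in RPF, 0 to 2 in input and 0 to 1 in TE. The lowest adjusted p of the 8 with this pairing was 0.116, for Fabp1 in RPF by limma. In RPF 5 of the 8 had an unadjusted p under 0.05 instead of 2. Over all 8994 genes, 1533 did so instead of 1205. Over all genes RPF calls were 12 with the GC trend removed, 66 with the block added to it, 23 on the RPF libraries alone and 61 by edgeR on reads, and were 28, 9 and 16 without WT mice 1, 2 and 3 and 226, 0 and 11 without KO mice 1, 2 and 3. They split into 15 higher and 29 lower as reported, 20 and 23 with TMM factors, and 7 and 5 with the GC trend removed. Input calls were 30 with no filter and 1 by DESeq2, and 0 to 21 with a mouse left out, and TE calls were 0 in all but 2 fits. With 57 to 137 reads of Pnpla2 and 68 to 1035 of Lpin1 per input library, counting error is largest for the lowest of these.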

Other observations

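Lpin1 was among the genes that varied most between mice of a genotype, and the 11 tested genes with a larger SD in input were looked up after its value was seen. They were Abhd1, Mfsd2a, Cish, Cyp4a14, Cyp26a1, Abcb1b, Onecut1, Myc, Trhde, Bcl6 and Asns, with SDs of 1.51 to 2.67 on the log2 scale. Some of these SDs rest on very few reads. A single read gives an input value of 1.83 in WT mouse 1, 1.57 in WT mouse 2 and 1.33 in KO mouse 2. Abcb1b, Asns and Cish had these values in those mice. Abhd1 and Mfsd2a stood at 3.67 in WT mouse 1. Mfsd2a, a lysophospholipid transporter, had input values of 3.67, 187 and 77.4 in WT mice 1, 2 and 3 and 34.9, 202 and 14.4 in KO mice 1, 2 and 3. Like Lpin1 it was lowest in WT mouse 1 and KO mouse 3 of their genotypes and highest in mouse 2 of both. Cyp4a14, a fatty acid omega-hydroxylase, had another order, with 567, 62.7 and 22.3 in WT and 665, 165 and 60.8 in KO, highest in mouse 1 and lowest in mouse 3 of both genotypes. In RPF Mfsd2a was at 11.3, 262 and 150 in WT and 46.6, 420 and 57.3 in KO, and Cyp4a14 at 930, 159 and 56.7 in WT and 1073, 328 and 164 in KO.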
